A study of Mus musculus with 9 samples.

Results

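The aortic arch of ApoE-/- mice on a high-fat diet, called the model group in the labels, was compared with the arch of C57BL/6J mice on a standard diet, the control group. The comparison held 6 of the 9 libraries of the series, 3 per group, chosen by their group labels. The other 3 libraries, from ApoE-/- mice on the same diet given 5.12 g/kg/day of a preparation named ZCL by gavage for 15 weeks, entered only where stated, to estimate how genes vary with neighbouring tissue. Apoe was removed in the whole animal, and genotype and diet differed together, so neither can be told apart from the other here. The diets lasted 15 weeks, all libraries carry batch label 1, and no sex, age or pooling is given in the labels. Since the labels number the replicates but do not say that each is another animal, every p-value here reflects the scatter among these libraries, part of which may be technical.

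ApoE is a protein on remnant lipoproteins that binds receptors on the liver and so clears cholesterol from blood. Without it, lipoproteins enter the inner wall of the aorta, where macrophages take them up and become foam cells, and smooth muscle cells and matrix then build a plaque. The arch lies against the atria of the heart, is wrapped in fat that includes brown fat, and is crossed by the vagus and sympathetic nerves, so that a dissected arch can hold heart muscle, nerve and fat beside the vessel wall. In bulk tissue, fewer cells of a type and less RNA per cell cannot be told apart.

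Of 21989 genes in the table, 12086 reached 1 FPKM (fragments per kilobase of gene, scaled to library size) in at least 3 of the 6 libraries and were tested on log2(FPKM + 1), on which scale all log2 differences are model minus control. The limma test with Benjamini-Hochberg adjustment called 0 genes (0%) below 0.05, and its smallest adjusted p = 0.118. An unadjusted p under 0.05 was found for 1095 genes (9.06%), and limma with array weights called 659 after adjustment. Genes were therefore described by whether the groups separated. In 867 genes (7.17%) the 3 model values all exceeded the 3 control values, and in 964 (7.98%) all 3 were below, together 15.1% of genes tested. Of these, 42 higher and 124 lower genes reached 1 FPKM in 1 group only and had to separate by the filter, and among the 11920 genes that reached it in both groups 14.0% separated.

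Libraries of 1 group differed widely in tissue content. The mean log2(FPKM + 1) of the heart muscle list was 9.91 in control 1 and 7.87 in control 2 but 2.06 in control 3, against 2.63, 2.11 and 2.71 in the model libraries. Myl7, an atrial myosin light chain, stood at 6861, 2540 and 6.39 FPKM in control against 23.3, 10.7 and 10.7 in model. Heart muscle was thus high in control 1 and 2 only, and the groups overlapped. Brown fat genes were highest in control 3, at a list mean of 8.31 against 5.34 to 6.93 in the other 5 libraries, and Ucp1, the uncoupling protein that makes heat, stood there at 7979 FPKM. Airway genes marked control 2, where the club cell secretory gene Scgb1a1 reached 6425 FPKM against 8.88 to 46.7 in the other 5. Model 1 had the lowest white fat mean of the model libraries (5.91 against 7.54 and 7.84) and the highest macrophage mean (6.72 against 5.81 and 5.10). Haemoglobin genes took 14.3%, 8.71% and 4.95% of summed FPKM in model 1, 2 and 3 and 1.99% to 3.69% in control.

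**Figure D1:**
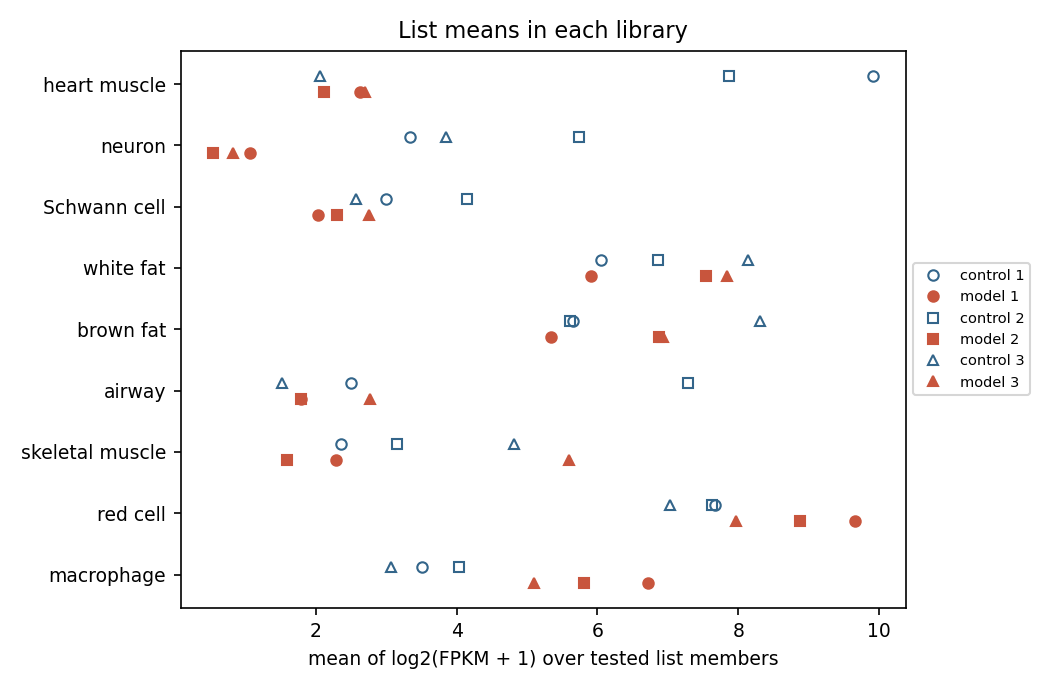
Mean of log2(FPKM + 1) over the tested members of 9 gene lists (x axis) in each library, with open blue symbols for control and filled red symbols for model. The neuron, red cell and macrophage means separate the groups, whereas heart muscle is high in control 1 and 2 only (9.91 and 7.87) and control 3 lies with the model libraries. Of the 16 neuron genes, 12 had to separate by the filter.

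Of the neighbouring tissues, neuron genes were lower in every model library. All 16 genes of the list were tested, but 12 of them, Nefl, Syt1 and Snap25 among these, reached 1 FPKM in control only and had to separate by the filter. The other 4 were also lower without overlap, where 7.05% of all genes that reached 1 FPKM in both groups were. The median log2 difference of the 16 was -3.61. This median and the list mean rest mostly on those 12 genes and are given as a description. Of the other 4, Tubb3 and Uchl1, the 2 most abundant of the list, had -3.72 and -2.67. The list mean was 3.34, 5.75 and 3.85 in control and 1.07, 0.547 and 0.820 in model. None passed the test after adjustment over all genes. Schwann cell genes, which mark the glia around axons, were lower in 9 of 9 members with a median of -1.07, and the groups overlapped in all but Mbp, the myelin basic protein gene. Their list mean overlapped too, at 3.00, 4.14 and 2.57 in control and 2.03, 2.31 and 2.76 in model. Blood also followed the groups, with red cell means of 7.68, 7.62 and 7.03 in control and 9.66, 8.88 and 7.97 in model.

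After Apoe, the 5 genes of smallest p were Rab3b, Nefl, Cplx1, Ngfr and Htr3a, all known from neurons. Each reached 1 FPKM in control only, so that the filter fixed their separation and their values are given as a description. Htr3a, a serotonin-gated ion channel of autonomic neurons, stood at 11.4, 40.6 and 12.3 FPKM in control, was listed at 0 in model 1 and stood at 0.028 and 0.031 in model 2 and 3. Nefl, the light neurofilament chain of axons, stood at 10.2, 27.0 and 9.20 FPKM in control against 0.071, 0 and 0.066 in model. Rab3b, a GTPase of secretory vesicles, stood at 17.5, 27.2 and 8.95 FPKM in control against between 0.321 and 0.470 in model. All 3 control libraries held these transcripts, control 2 most of all, and no model library reached 1 FPKM of any of them. Cplx1, a regulator of synaptic vesicle fusion, had a log2 difference of -3.46 ± 0.376 (SE) and the neurotrophin receptor Ngfr -3.63 ± 0.404, both with limma adjusted p = 0.118. Because the nerve mean (neuron and Schwann lists together) did not overlap between the groups, the group explained 0.803 of its variance over the 6 libraries, and nerve content and group cannot be told apart within them. The 12 neuron genes that had to separate by the filter are part of that mean. In the 3 libraries given ZCL the nerve mean was 6.40, 4.67 and 1.64 and the heart mean 1.75, 8.42 and 9.31, so that the 9-library fits used below rest in part on treated mice.

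Heart muscle and fat did not follow the groups in that way. All 15 tested heart genes were lower on average (median log2 difference -4.38), yet the groups separated in 1, Tnnc1, the cardiac troponin C, at 1257, 535 and 6.24 FPKM in control against 5.12, 3.92 and 5.12 in model. White fat genes had a median of 0.043 with 0 of 11 members separating. Brown fat genes had a median of 0.23, with 1 of 11 members separating, Ppargc1a, a coactivator of mitochondrial biogenesis, lower at 8.20, 2.71 and 6.72 FPKM in control against 0.657, 2.46 and 2.41 in model. The group explained 0.434 of the variance of the heart mean and 0 of the fat mean.

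To describe how far separations held beside these tissues, each gene was refitted with tissue list means as covariates. The heart, the nerve or the fat mean entered alone in the 6 libraries, and all 3 means entered together in the 9 libraries. A gene was called kept if the groups did not overlap, the log2 difference was at least 1 in size, the gene was in none of the tissue lists, and the difference held its sign and at least 0.5 of its size in all 4 fits. This is a description of fitted values without a p of its own. Passing the nerve fit in the 6 libraries cannot show a difference apart from nerve, since nerve content and group cannot be told apart there. Among kept higher genes that fit enlarged many differences, such as Spp1 from 6.29 to 12.8 and Mki67 from 1.54 to 3.51. It reduced others, such as Il1b from 1.00 to 0.839. Of the separating genes, 251 higher and 269 lower ones met the size limit outside the tissue lists. Kept were 82 of the 251 higher genes (32.7%, or 0.678% of genes tested) and 40 of the 269 lower genes (14.9%, or 0.331% of genes tested). Of the kept genes, 6 higher and 5 lower ones had reached 1 FPKM in 1 group only. In 63 of the 82 kept higher genes the highest control was control 2, the control with the highest nerve mean. It was control 1 in 10 and control 3 in 9. The set leaned on single libraries: without control 3 it held 26 higher and 78 lower genes, 17 of them among the 122, and without control 2 it held 49 and 32, with 36 shared. Without model 1 it held 190 and 51 genes and without model 3 it held 167 and 58.

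In both directions the 9-library fit removed the most genes. Among lower genes, 165 fell short with the nerve mean, 48 with the heart mean and 210 in the 9-library fit, and 169 of the 229 lower genes that were not kept were highest in control 2, the library with the highest neuron and airway means. Among higher genes 1 fell short with nerve, 4 with heart and 166 in the 9-library fit, and 159 of the 169 that were not kept were highest in model 1. No gene fell short with the fat mean in the 6 libraries. The group explained 0 of the variance of that mean, so this fit could barely change any difference. Passing it therefore says little about fat. Just inside the limit lay Apoe, at 0.501 of its difference in the 9-library fit, and Csf3r, at 0.516. Just outside lay Srl, a calcium-binding protein of the sarcoplasmic reticulum, at 0.497, and Cybb at 0.490.

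**Figure D2:**
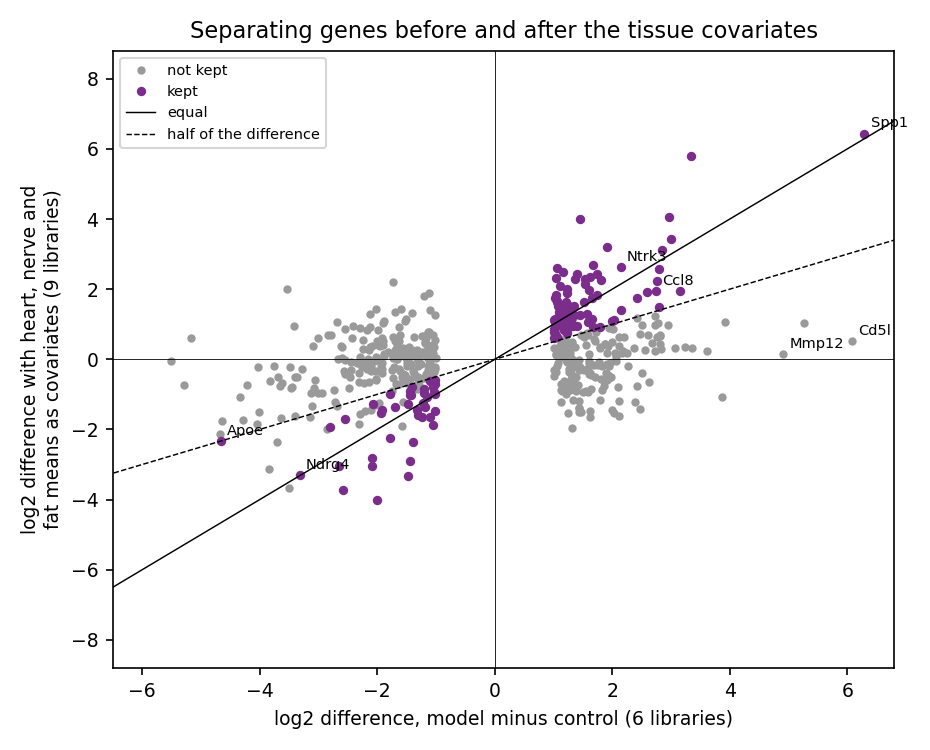
Log2 difference between model and control without covariates in 6 libraries (x axis) and with the heart, nerve and fat means as covariates in 9 libraries (y axis), for the 251 higher and 269 lower separating genes of at least 1 log2 unit; purple points are the 82 and 40 kept genes. Kept genes lie on the outer side of the dashed line of 0.5 of the difference, and Cd5l and Mmp12, which separate by 6.08 and 4.91, lie near 0 on the y axis.

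Apoe, the gene removed in the model mice, was the gene of smallest p. On the minus strand of chromosome 7, 19696244 to 19701310 in GRCm38.p6, its level was 829, 1006 and 339.9 FPKM in control 1, 2 and 3, against 18.9, 33.4 and 24.5 in model. Every model library lay below every control library, by a log2 difference of -4.67 ± 0.455 (SE, limma adjusted p = 0.118), which was -2.34 in the 9-library fit. Within 10 Mb of Apoe, 194 genes were tested, of which 14 were higher and 23 lower without overlap (19.1%, against 15.2% of all tested genes with a position), and Apoe and Blvrb were the 2 kept genes there.

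Ntrk3, the receptor of neurotrophin 3, was the higher gene of smallest p and was kept. It stood at 3.13, 4.54 and 5.36 FPKM in control against 16.8, 27.4 and 23.7 in model, a log2 difference of 2.14 ± 0.261 (SE, limma adjusted p = 0.152). Next in rank among kept higher genes was Ccl8, a chemokine that draws monocytes, at 3.17, 2.63 and 2.11 FPKM in control against 32.3, 12.4 and 30.6 in model. Both genes separated the groups, and in each the lowest model value was more than 3 times the highest control value. With the 3 tissue means in 9 libraries the differences were 2.63 for Ntrk3 and 1.94 for Ccl8. Ntrk3 was higher in model and the neuronal genes above were lower, and the cell source of Ntrk3 was not tested.

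Macrophage genes were the largest named group among the higher genes. Of 21 genes on the list 19 were tested and 18 were higher without overlap, against 7.17% of all genes. Without Fcgr1, which reached 1 FPKM in model only, 17 of 18 were higher, against 6.92%. The list had a median log2 difference of 2.47. The list mean was 3.51, 4.03 and 3.07 in control and 6.72, 5.81 and 5.10 in model. Adgre1, the F4/80 antigen, stood at 1.80, 1.90 and 1.74 FPKM in control against 12.4, 27.8 and 7.80 in model. Lyz2, the lysozyme of myeloid cells, stood at 213, 579 and 140 FPKM in control against 4275, 2997 and 958 in model. C1qa, a chain of the complement recognition protein C1q, stood at 46.8, 52.7 and 28.7 FPKM in control against 245, 164 and 116 in model. The lowest model library was model 3 for all 3 genes, and it still lay above the highest control.

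Macrophage genes fell on both sides of the 0.5 limit in the covariate fits. Adgre1, Csf1r, Cd14, Lyz2, C1qa and Itgam were kept (6 of 19). The list median was 2.64 with the heart mean, 2.88 with the nerve mean and 0.718 in the 9-library fit. C1qa and C1qb, chains of the same protein, had 1.09 ± 0.81 and 0.97 ± 0.70 (SE) in the 9-library fit. Only C1qa was kept, since the limit is a share of each gene's own difference, 1.99 for C1qa and 2.73 for C1qb. With the summed heart and brown fat covariate described below, Lyz2 had 1.42 of its 3.15. Adgre1, Cd14, C1qa and Itgam held at least 0.5 of theirs there. Itgam, an integrin chain of myeloid cells, stood at 1.91, 4.87 and 3.04 FPKM in control against 18.8, 79.1 and 13.5 in model, highest in model 2. It kept 2.57 ± 1.69 (SE) of its 2.79 in the 9-library fit. By contrast Cd68, a lysosomal glycoprotein of macrophages, stood at 396 FPKM in model 1 and at 67.5 and 64.2 in model 2 and 3, and its difference was 3.24 without covariates and 0.34 in the 9-library fit. Model 1, where Cd68 was highest, was the model library with the lowest fat mean (5.63 against 7.21 and 7.38), and the part of fat content in such levels was not tested.

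Foam cell genes separated in part and were seldom kept. All 20 were tested, and 10 were higher without overlap, of which Cd5l, Mmp12 and Atp6v0d2 reached 1 FPKM in model only and had to separate. Among the other 17 genes 7 were higher, against 6.92% of all genes that reached 1 FPKM in both groups. The list had a median log2 difference of 1.36, and of -0.76 in the 9-library fit. Spp1, the secreted matrix protein osteopontin, was the 1 kept member, at 4.50, 87.2 and 1.30 FPKM in control against 2792, 214 and 895 in model. Its difference was 6.29, and 2.11 with the summed heart and brown fat covariate described below. Cd5l, a secreted macrophage protein, was listed at 0 in control 1, stood at 0.784 and 0.378 in control 2 and 3, and at 373.7, 105.1 and 18.3 FPKM in model. Gpnmb, a glycoprotein of lipid-laden macrophages, stood at 6.34, 5.53 and 3.24 FPKM in control against 1269, 76.6 and 114 in model. Mmp12, the macrophage elastase, stood at 0.286 to 0.693 FPKM in control against 250, 19.5 and 17.7 in model. In the 9-library fit Cd5l, Gpnmb and Mmp12 had differences of 0.52, 1.03 and 0.15. Resident adventitial macrophage genes had a median of 0.156, and 3 of 10 tested members separated, among them the folate receptor gene Folr2, which was kept at 4.24, 5.68 and 3.24 FPKM in control against 10.9, 9.52 and 9.25 in model.

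Other leukocyte lists were thin. Of 18 T and NK cell genes 8 passed the filter and 0 separated, and of 12 B and plasma cell genes 9 passed and 0 separated, where 15.1% of all genes did, so lists of this size hold little either way. Among 13 neutrophil genes 6 passed, and Csf3r, the receptor of granulocyte colony-stimulating factor, separated and was kept at 0.923, 1.47 and 0.399 FPKM in control against 7.28, 8.39 and 2.57 in model. The other 5 neutrophil genes tested overlapped between the groups.

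Complement, chemokine and interferon genes added kept members. Over all genes tested 7.17% were higher without overlap. Complement genes were higher in 7 of 15 tested, with C1qa and Cfp, the alternative pathway stabiliser properdin, kept. Chemokine genes were higher in 6 of 20 tested, with Ccl8 kept, and Ccl6, another macrophage chemokine, at 25.7, 32.0 and 29.4 FPKM in control against 222, 137 and 60.8 in model, not kept. Interferon-induced genes were higher in 6 of 16 tested, with Isg15, Irf7 and Oas1a kept. With the summed heart and brown fat covariate described below, Isg15 had 0.549 of 1.18 and Oas1a 0.473 of 1.40. Isg15, a ubiquitin-like protein induced by interferon, stood at 8.97, 14.2 and 9.98 FPKM in control against 30.4, 27.6 and 20.6 in model. Rsad2, the antiviral protein viperin, separated at 7.65, 7.29 and 10.8 FPKM against 22.1, 18.9 and 17.0 but had 0.116 left of 1.10 in the 9-library fit. Cytokine and inflammasome genes were higher in 4 of 13 tested, with Il1b kept at 1.65, 0.794 and 0.407 FPKM in control against 3.11, 2.30 and 2.97 in model. Of the adhesion genes Selp and Itgb2 separated, 2 of 12, and neither was kept.

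Collagen and matricellular genes separated more often than the other matrix lists. Over all genes tested 7.17% were higher without overlap. Collagen genes were higher in 9 of 14 tested with a median of 1.08, and 0 were kept, the median being -0.108 in the 9-library fit. Col6a3, a chain of the microfibrillar collagen VI, stood at 5.96, 7.88 and 5.81 FPKM in control against 40.2, 15.4 and 19.9 in model. Matricellular genes were higher in 7 of 10 tested, and Tnc, Thbs1 and Spp1 were kept. Fn1, the fibronectin gene, stood at 44.2, 52.0 and 40.5 FPKM in control against 533, 325 and 198 in model, and its difference was 2.81 without covariates and 0.706 in the 9-library fit. Tnc, tenascin C of remodelling tissue, stood at 1.89, 3.64 and 1.75 FPKM in control against 24.9, 8.23 and 12.5 in model. Thbs1, thrombospondin 1, stood at 9.55, 23.1 and 6.52 FPKM in control against 180, 63.1 and 54.2 in model. Model 1 was highest in each of these 4 genes, and every model library lay above every control.

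Protease genes were higher in 3 of 16 tested, Mmp12 through the filter, and lower in 1, against 7.17% and 7.98% of all genes. Elastic fibre genes were higher in 2 of 11 with a median of 0.53, and cartilage and calcification genes in 1 of 10 with a median of -0.142. Mmp13, a collagenase, stood at 1.28, 0.094 and 0.374 FPKM in control against 8.48, 4.64 and 31.7 in model, was highest in model 3 and was kept. The collagen cross-linking enzyme Lox stood at 9.61, 20.2 and 13.4 FPKM in control against 79.9, 24.2 and 29.2 in model, and its difference turned from 1.42 to -0.731 in the 9-library fit. Contractile smooth muscle genes had a median of 0.135, and 1 of 16 separated. This was Des, the intermediate filament desmin of all muscle, lower at 488, 240 and 59.0 FPKM in control against 13.7, 18.7 and 38.3 in model. Its difference was -3.09 without covariates and -1.53 with the heart mean. Endothelial genes had a median of 0.115 with 2 of 19 higher, Cldn5 through the filter, and fibroblast genes -0.071 with 1 of 14 higher. In the smooth muscle, endothelial and fibroblast lists the share that separated in either direction lay below the background of 15.1%.

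**Figure D3:**
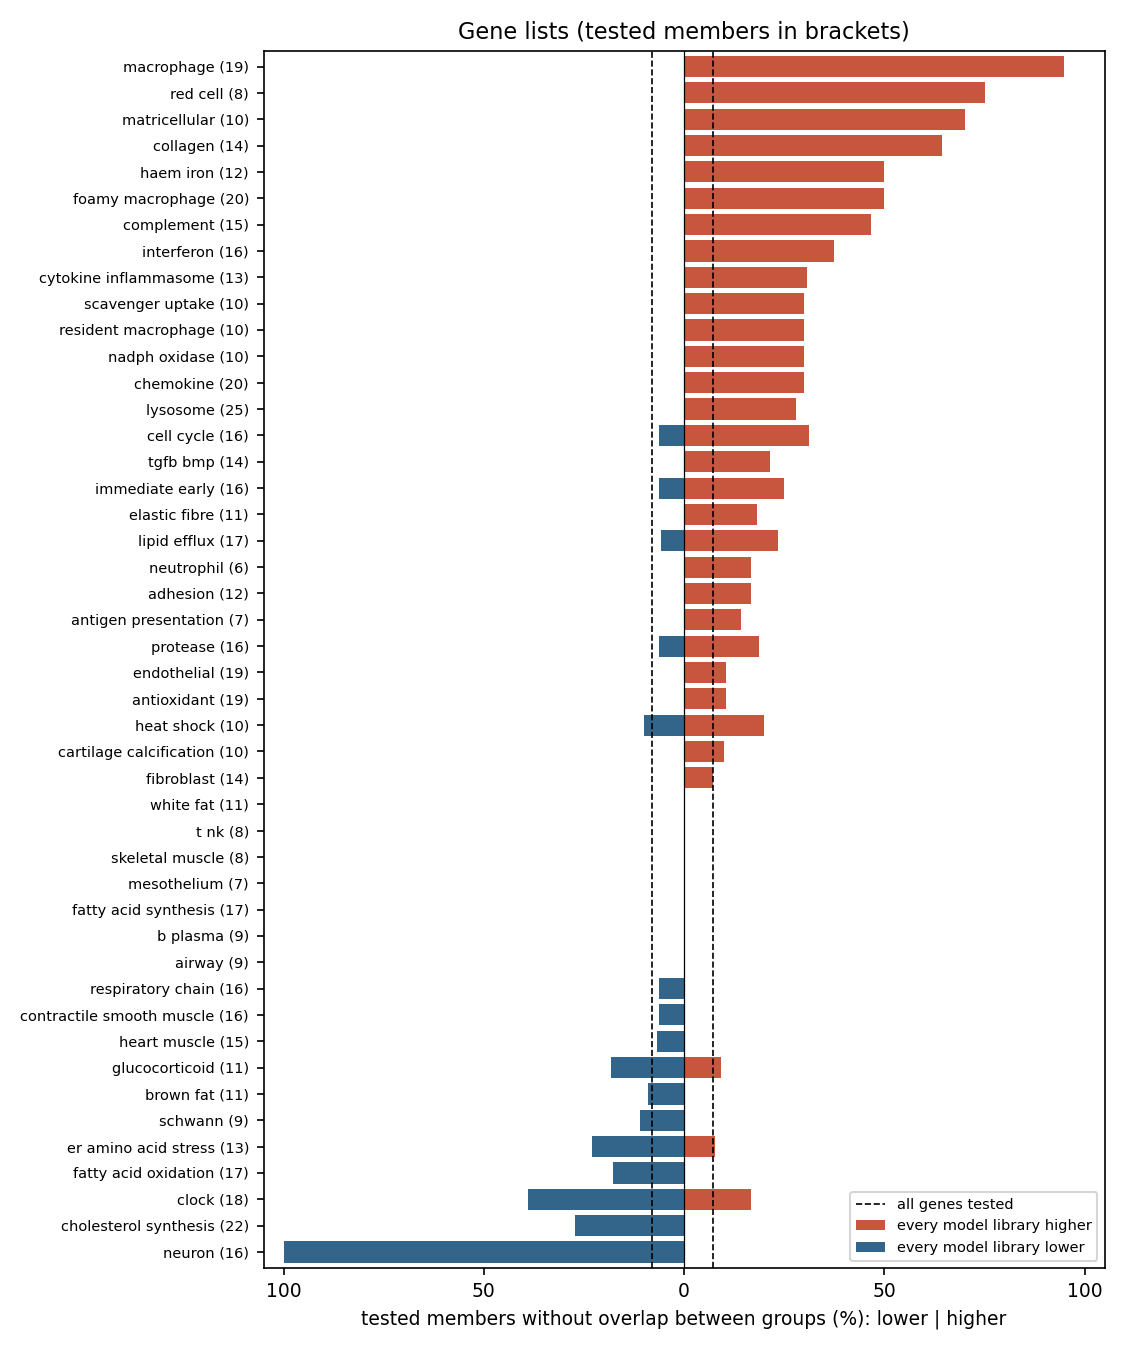
Share of the tested members of each list (number in brackets, lists of 5 or more) in which every model library lay above (red, to the right) or below (blue, to the left) every control library; dashed lines give the same share over all genes tested, 7.17% and 7.98%. Macrophage genes (18 of 19) and neuron genes (16 of 16) stand at the 2 ends, and 12 of these neuron genes had to separate by the filter.

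Cell cycle genes were kept in full where they separated higher. Of 16 tested, 5 were higher without overlap (7.17% of all genes), and all 5, Mki67, Ccnb2, Cdk1, Birc5 and Aurkb, were kept, while Tyms, thymidylate synthase, was lower and reached 1 FPKM in control only. The proliferation antigen gene Mki67 stood at 0.370, 3.29 and 0.571 FPKM in control against 5.28, 6.21 and 3.97 in model. Ccnb2, a mitotic cyclin, stood at 0.606, 2.02 and 0.899 FPKM in control against 5.44, 4.22 and 3.54 in model. These levels were low throughout, control 2 was the highest control in each of the 5. With the summed heart and brown fat covariate described below, all 5 had less than 0.5 of their difference, Mki67 at 0.52 of 1.54 and Birc5 at 0.08 of 1.09. In the deposited gene ontology annotation, the term cell cycle was carried by 15 of the 82 kept higher genes (18.3%), by 1 of the 169 higher genes that were not kept (0.592%) and by 4.05% of all genes tested. The term immune system process was carried by 12 of the 82 kept higher genes (14.6%), by 22 of the 169 not kept and by 2.21% of all. These terms were chosen after the kept genes were seen.

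Stress and signalling genes gave single members. Heat shock genes were higher without overlap in 2 of 10 tested and lower in 1, against 7.17% and 7.98% of all genes. Their median was -0.018, with 5 of 10 lower on average. Hsph1 and Dnajb1, co-chaperones of the heat shock response, were higher and kept. Hsph1 stood at 9.33, 14.2 and 8.30 FPKM in control against 35.6, 66.7 and 23.9 in model, and Dnajb1 at 13.8, 15.2 and 12.8 against 27.2, 50.03 and 27.8. Model 2 was highest in both. Cirbp, an RNA-binding protein induced by cold, was lower and kept, at 69.6, 68.4 and 38.8 FPKM in control against 29.1, 22.0 and 22.2 in model. Dusp8, a phosphatase of MAP kinases, stood at 4.28, 3.11 and 2.91 FPKM in control against 9.78, 8.61 and 8.84 in model, with little spread within either group. Lrrc32, which holds latent TGF beta at the cell surface, stood at 15.3, 15.7 and 13.1 FPKM in control against 28.7, 28.8 and 34.0 in model. Blvrb, a biliverdin reductase of haem breakdown, stood at 26.9, 36.7 and 28.2 FPKM in control against 57.5, 80.9 and 82.2 in model. The part of blood in this level was not tested. Tnfrsf10b, a receptor of the death ligand TRAIL, stood at 3.09, 3.73 and 3.54 FPKM in control against 6.75, 11.2 and 10.6 in model.

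**Figure D4:**
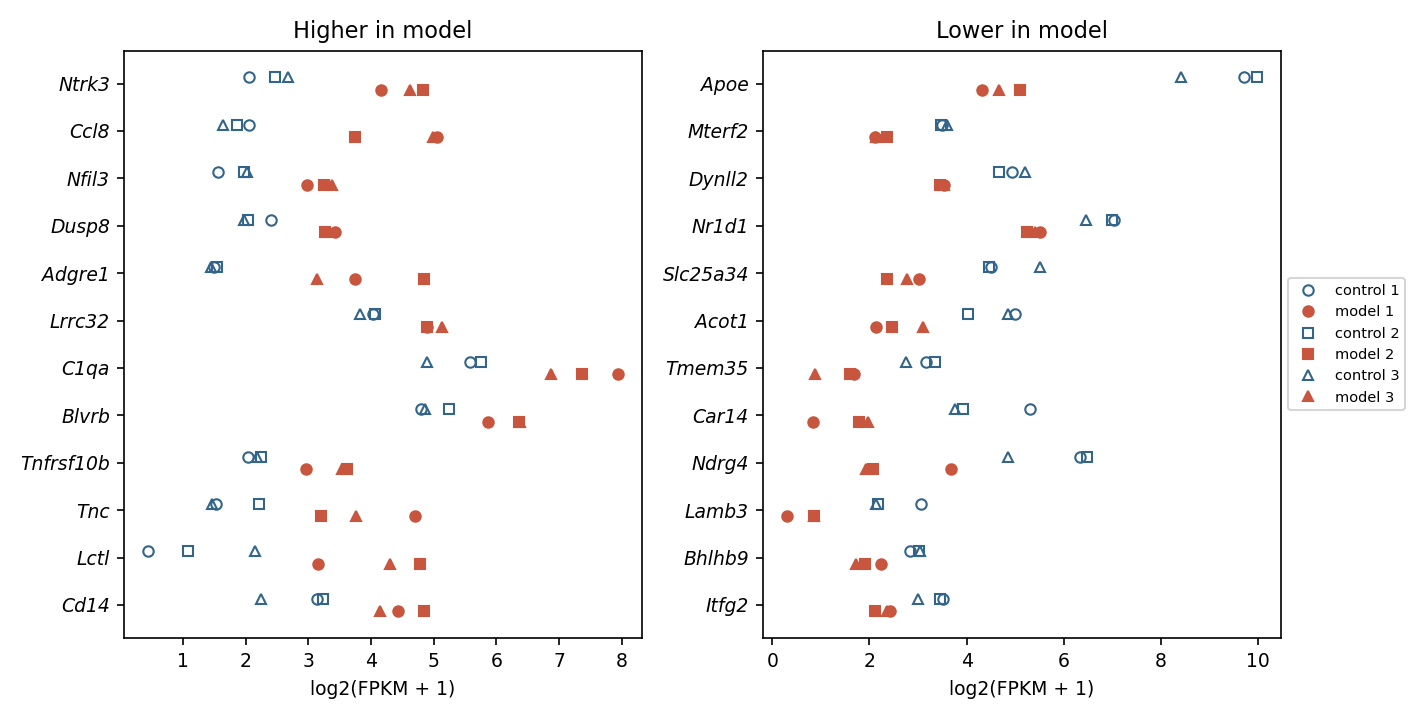
Log2(FPKM + 1) (x axis) in each library for the 12 kept genes of smallest p that were higher (left) and lower (right) in model; open blue symbols are control and filled red symbols model libraries. The groups do not overlap in any row, since that is part of the rule that chose these genes.

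Clock genes separated in both directions. The clock is a loop in which ARNTL with CLOCK or NPAS2 binds E-boxes and drives PER, CRY, REV-ERB (Nr1d1, Nr1d2) and the output factors DBP, TEF and HLF, while REV-ERB in turn represses Arntl, Npas2 and Nfil3. Of 19 genes 18 were tested, and 7 were lower and 3 higher without overlap, against 7.98% and 7.17% of all genes. The 3 higher ones were Arntl, Npas2 and Nfil3, and the 7 lower ones were Cry2, Nr1d1, Nr1d2, Dbp, Tef, Hlf and Ciart. The hour at which tissue was taken is not given in the labels, so the hour and the group cannot be told apart.

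Nr1d1 stood at 130, 126 and 86.7 FPKM in control against 44.6, 36.6 and 41.5 in model, and was kept. Dbp stood at 52.2, 50.2 and 27.4 FPKM in control against 19.1, 6.48 and 5.57 in model, and was kept. Nfil3, a repressor at the sites that DBP activates, stood at 1.95, 2.94 and 3.05 FPKM in control against 6.87, 8.47 and 9.35 in model, and was kept. In control 3, the library low in heart genes, Nr1d1 and Dbp were lower than in control 1 and 2 but still above model. Arntl stood at 2.44, 2.85 and 2.18 FPKM in control against 3.97, 5.34 and 4.21 in model, and Ciart, a repressor of the loop, at 5.76, 4.92 and 3.36 against 1.19, 2.02 and 1.76. Per1, Per2, Cry1 and Clock overlapped between the groups, with log2 differences from -0.36 to 0.24.

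The E-box CACGTG, the same on both strands, was looked for in the 250 bases before the start of clock genes, since members of this list separated in opposite directions. RefSeq promoters of GRCm38.p6 were given for 15 of the 18 tested genes, and 5 of these, Bhlhe41, Ciart, Cry1, Per1 and Tef, held it. By promoter, 6 of the 20 given for these genes held the motif, and 6.02% of all 32851 promoters did. Ciart held 3 copies and Tef 1 in each of 2 promoters, and both genes were lower without overlap; the sites are shown 5′ to 3′ on the gene's strand with the E-box in capitals, with those of Cry1 and Per1, which overlapped between the groups, beneath for comparison.
Ciart, chr3:95882327-95882356, minus strand: tgcatctagagtCACGTGttgccggtaagc
Ciart, chr3:95882269-95882298, minus strand: cgcagggggaggCACGTGcagaaccgcacg
Ciart, chr3:95882255-95882284, minus strand: cgtgcagaaccgCACGTGtctgggaggggg
Tef, chr15:81802534-81802563, plus strand: gtgctgtggctcCACGTGctgcagctggca
Tef, chr15:81811264-81811293, plus strand: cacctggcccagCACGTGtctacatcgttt
Cry1, chr10:85185097-85185126, minus strand: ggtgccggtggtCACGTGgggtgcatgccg
Per1, chr11:69098771-69098800, plus strand: agcacccaagtcCACGTGcagggatgtgtg
The E-box was present in genes that separated and in genes that did not, and no match in a window says only that these letters are not there.

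**Figure D5:**
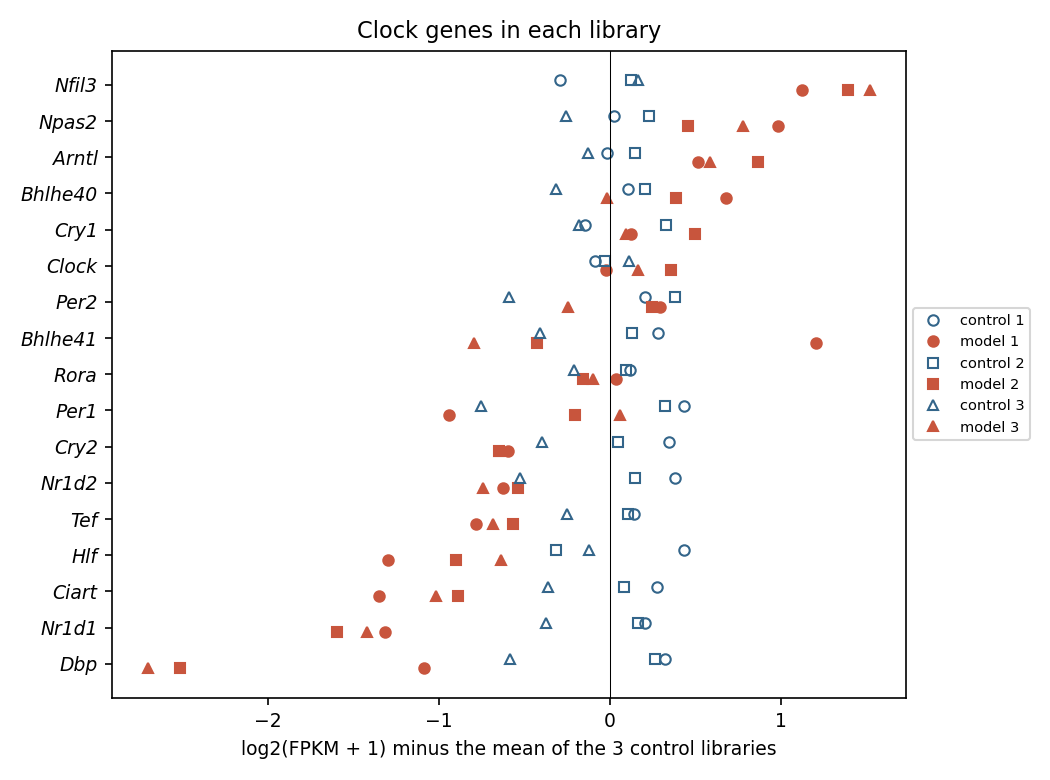
Log2(FPKM + 1) minus the mean of the 3 control libraries (x axis) for 17 of the 18 tested clock genes, with open blue symbols for control and filled red symbols for model libraries. Dbp, Nr1d1, Ciart, Hlf, Tef, Nr1d2 and Cry2 lie to the left of all control points, and Nfil3, Npas2 and Arntl to the right.

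By p, the kept lower genes began with Apoe, Mterf2, Dynll2 and Nr1d1. In the deposited annotation 9 of the 40 (22.5%) carried the term mitochondrion, against 11.7% of all genes tested and 7.86% of the lower genes that were not kept. Mterf2, a mitochondrial transcription factor, stood at 10.2, 10.2 and 11.1 FPKM in control against 3.31, 4.16 and 3.40 in model, with a log2 difference of -1.32 ± 0.174 (SE, limma adjusted p = 0.152). It was the 1 gene kept with every library in and with each of the 6 left out in turn. Slc25a34, a carrier of the inner mitochondrial membrane, stood at 21.6, 20.9 and 44.3 FPKM in control against 7.15, 4.12 and 5.85 in model. Acot1, a cytosolic acyl-CoA thioesterase that shares sequence with Acot2, stood at 31.1, 15.3 and 27.9 FPKM in control against 3.37, 4.51 and 7.60 in model.

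Heart muscle and brown fat are both rich in mitochondria, and control 1 and 2 were high in heart genes where control 3 was high in brown fat genes. With log2 of the summed FPKM of both lists as the covariate, a fit chosen after the data were seen, 26 of the 40 kept lower genes and 57 of the 82 kept higher genes still had 0.5 of their difference. Mterf2 had -1.21 and Slc25a34 -2.62 there, while Acot1 had -0.979 of its -2.06. Vdac1, the porin of the outer mitochondrial membrane, and Atp5g3, a subunit of ATP synthase, had 0.056 and -0.107 of their -1.05 and -1.21. Vdac1 stood at 298, 122 and 176 FPKM in control against 76.5, 84.4 and 108 in model. Respiratory chain genes as a list had a median of -0.084, with 1 of 16 lower without overlap.

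Of the 40 kept lower genes, 24 were highest in control 1, the library with the highest heart mean, 13 in control 3 and 3 in control 2. Among the 24 were the troponin gene Tnnt1, at 8.25, 3.60 and 5.18 FPKM in control, and Got1, at 234, 58.8 and 36.9. Being kept does not show that a level is free of heart muscle. Other kept lower genes had no list. Dynll2, a light chain of dynein and myosin V motors, stood at 29.7, 24.3 and 35.6 FPKM in control against 10.5, 9.90 and 10.6 in model. Ndrg4, a gene of heart and nerve, stood at 79.1, 88.5 and 27.7 FPKM in control against 11.8, 3.19 and 2.83 in model, and had -2.44, -2.21 and -3.30 of its -3.32 in the heart, nerve and 9-library fits. Car14, a membrane carbonic anhydrase, stood at 38.3, 14.1 and 12.6 FPKM in control against 0.775, 2.45 and 2.91 in model, and had -0.914 of its -2.80 with the summed heart and brown fat covariate. Tmem35, Lamb3, Bhlhb9 and Itfg2 were also among the 12 of smallest p, with log2 differences from -1.02 to -1.79. Lamb3 had -0.671 of its -1.79 with the summed covariate, while Tmem35, Bhlhb9 and Itfg2 held theirs.

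Lipid lists contributed Apoe and Acot genes and little else to the kept genes. Cholesterol synthesis genes were lower without overlap in 6 of 22 tested (7.98% of all genes), with a median of -0.545, and 0 were kept. Hsd17b7, an enzyme of the late pathway, stood at 4.92, 4.49 and 2.84 FPKM in control against 0.534, 0.818 and 1.01 in model, and had -0.676 of -1.49 in the 9-library fit. Lipid efflux genes were higher without overlap in 4 of 17 (7.17% of all genes). Abca1, the cholesterol exporter, stood at 12.1, 13.5 and 21.3 FPKM in control against 78.1, 35.5 and 39.9 in model, and had -0.419 in the 9-library fit. Fatty acid synthesis genes had a median of 0.563 with 0 of 17 separating, and -0.247 with the heart mean as covariate. Oxidant genes were higher in 3 of 10, among them Cybb and Nos2, with 0 kept. Antioxidant genes were higher in 2 of 19, Hmox1 and Gpx1, near the 7.17% of all genes. Their list had a median of -0.074, with 11 of 19 lower on average and 0 kept.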

How the data were processed

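Purified mRNA of mouse aortic arch was sequenced, per the labels' protocols (NEBNext Ultra kit). The authors deposited 1 table of FPKM values; builds GRCm38.p5 and mm10 are in the submitters' processing notes, while the sources used here give no aligner, counter or strand setting. FPKM keeps no counts, so no counting interval was computed. Columns Contorl, AS and HD were matched to titles by name. No 2 libraries were identical. Genes at 1 FPKM or more in 3 of the 6 libraries were fitted on log2(FPKM + 1), pseudocount 1, with limma 3.58.1 in R 4.3.3 (empirical Bayes with trend, two-sided), and the procedure was tested on simulated data. An exact permutation test of 3 against 3 cannot go below 0.1. This scale understates differences of genes near or below 1 FPKM. The covariates were list means of log2 values. Members, lists and tests were chosen with earlier results of these data known; the 48 lists held 727 entries. Named genes were Apoe, the 12 kept genes of smallest p and the 5 others without overlap in each direction (mean of 2 FPKM or more in the higher group), 2 separating members per list and the 2 most abundant of each tissue list. Members of the clock, macrophage, cell cycle and matrix lists beyond these, genes at the limits of the rule, and kept genes that the summed covariate reduced were named after their values were seen. Levels of Acot1 and Acot2, as of the alpha globin pair and the beta globin pair, are uncertain because near-identical copies share reads, and Nr1d1 overlaps Thra on the other strand. Positions are from RefSeq, GRCm38.p6. Figures used matplotlib 3.10.9. A few genes are not reported here.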

Additional observations from a re-analysis of the deposited data

How the results depend on the processing

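The kept set depends on single libraries. It held 82 higher and 40 lower genes with all libraries, and from 26 to 190 higher and from 32 to 78 lower genes when 1 library was left out. Without control 3 the counts were 26 and 78, and 17 of the 122 kept genes were shared; without control 2 they were 49 and 32, with 36 shared. Without model 1 they were 190 and 51, and without model 3 167 and 58. In every run but the one without control 3, 11 genes were kept: Ntrk3, Mterf2, Nfil3, Car14, Blvrb, Ak1, Ccnb2, Spp1, Fmo4, Filip1l and Aurkb. Genes without overlap numbered from 1035 to 2698 higher and from 1214 to 2773 lower with 1 library fewer, which makes separation easier. Array weights, which ran from 0.271 for control 3 to 4.46 for model 2, gave 20 and 22 kept genes with 23 shared; median-ratio rescaling gave 50 higher, and a limit of 0.75 of the size gave 18 lower. With no filter, 1533 genes were lower without overlap.

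By adjusted p, limma called 0 higher genes in every run that left out 1 library, and from 0 to 23 lower genes: 14 without control 2, which include Htr3a, Nefl, Syt1 and Stmn2 of neurons, and 23 without control 3, which include Tnnc1, Tnni3, Myl7 and Myh6 of heart muscle. It called 3 lower genes with a pseudocount of 0.1, 6 lower with median-ratio rescaling, 12 higher and 6 lower with the fat mean as covariate, and 224 higher and 435 lower with array weights, 73 of them kept genes. Apoe ranged from -5.14 to -4.36 with 1 library left out (adjusted p = 0.0142 without control 3), and passed at -4.67 with median-ratio rescaling, -4.67 with the fat covariate and -4.69 with array weights. The 9-library fit with 3 covariates moved the median of all genes from 0.005 to 0.194; the nerve covariate moved it to 0.367.

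In the 9-library fit the differences of these named genes changed sign: Abca1 -0.419, Des 0.373, Ltbp2 -0.462, Slc11a1 -0.393, Hexa -0.641, Alas2 -1.50, Lox -0.731 and Hmox1 -0.772. Tissue list genes, from which covariates were built or which mark other tissue, did so too, such as Mbp at 1.94 and Scgb1a1 at 6.08, and the Schwann list median went from -1.07 to 2.06. With the summed heart and brown fat covariate, Lox had -0.46, Loxl2 -0.143, Hmox1 -0.184 and Aplnr -0.143; the cause was not tested. Same-numbered libraries of the groups correlated at 0.119, -0.158 and 0.326 in their deviations from group means, so the numbers do not pair them, and the replicate number as a block left 0 genes called, with Apoe at -4.67.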

Other observations

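Several kept higher genes belong to no list. Saa3, an acute-phase apolipoprotein made by macrophages and fat, stood at 11.7, 5.86 and 1.88 FPKM in control against 20.6, 201 and 59.2 in model. F10, coagulation factor X, stood at 0.347, 1.34 and 0.772 FPKM in control against 8.65, 25.7 and 3.73 in model, and the low-affinity antibody receptor Fcgr2b at 10.8, 18.9 and 7.12 against 51.5, 37.4 and 28.5. Saa3 and F10 were highest in model 2 and Fcgr2b in model 1. Lgals1, galectin 1, stood at 291, 480 and 502 FPKM in control against 802, 845 and 872 in model. B2m, the light chain of MHC class I, stood at 794, 1726 and 856 FPKM in control against 2107, 2252 and 2310 in model, where the control library nearest to model was control 2. Both were abundant in every library and spread little within model. Of the 82 kept higher genes 54 were in none of the lists, as were 34 of the 40 kept lower genes. These genes were named after their values were seen.

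Counts for the remaining lists stand beside 7.17% higher and 7.98% lower over all genes tested. Red cell genes were higher without overlap in 6 of 8 tested, and their median log2 difference was 1.49 in the 6 libraries and -0.479 in the 9-library fit. Haem and iron genes were higher in 6 of 12 with Blvrb kept, lysosome genes in 7 of 25 with 0 kept, and scavenger uptake genes in 3 of 10 with 0 kept. Immediate early genes were higher in 4 of 16 and lower in 1, Egr1, and Dusp8 was kept. Nearer to those shares, TGF beta and BMP genes were higher in 3 of 14, and genes of endoplasmic reticulum and amino acid stress were lower in 3 of 13 and higher in 1, with 0 kept in both. Glucocorticoid-responsive genes were lower in 2 of 11, Mt1 and Klf9, and higher in 1, Sgk1. Of 7 mesothelium and 9 airway genes, 0 separated.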
